A study of Brassica napus with 24 samples.

Results

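The leaf genes of oilseed rape (Brassica napus) followed here are 4 of the 101040 genes of the count tables. They were POT6 (BnaA07g38760D) and CNGC3 (BnaA05g01380D), which the study lists under potassium (K) transport, and AVI2 (BnaA04g11960D) and ENOR3L3 (BnaC04g29260D), which it lists under magnesium (Mg) transport. The 4 were chosen on measured values: each had the smallest p for its element in the study's transporter list, CNGC3 and AVI2 at 11 d and POT6 and ENOR3L3 at 20 d of water deficit (WD). The differences between WD and control at these harvests and at 5 d are therefore given as a description with no test, and only the harvest at 18 d, which that choice did not use, was tested. By mean level, POT6 and ENOR3L3 were highest in WD leaves at 20 d, while CNGC3 and AVI2 were highest in control leaves at 11 d, 18 d and 20 d. For AVI2 the fitted difference at 18 d rested on WD replicate 3. Control 11 d replicate 1 was near the 5 d level for both CNGC3 and AVI2. At 18 d none of the 4 passed the test.

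The plants were the cultivar Trezzor, grown in a greenhouse, and each library came from leaves that had developed during the water shortage of a pool of 2 plants. There were 8 groups of 3 libraries. WD plants were sampled at 5 d (labelled 50% of field capacity, FC), at 11 d (25% FC), at 18 d (50% FC) and at 20 d (25% FC), and control plants kept at 80% FC were sampled at each harvest. The 18 d plants are known from the labels alone, and the study's text does not describe how their soil water was brought to 50% FC. The libraries taken as 11 d carry in their labels the date of the first harvest, 35 days after planting, and their day was set by matching their labelled soil water content to the methods text. For the 5 d plants the label and the methods text disagree, the methods giving a drier soil than the label.

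K is the main cation with which plant cells set their osmotic pressure, and its movement across the plasma membrane and the tonoplast moves water into and out of cells, guard cells included. Mg is the central atom of chlorophyll and a partner of ATP, and leaves store it in the vacuole. POT6 bears the name of an Arabidopsis member of the KUP/HAK/KT family, proteins that carry K across membranes. CNGC3 belongs to the cyclic nucleotide-gated channels, which in Arabidopsis pass K and other cations with little selection between them. The study gives AVI2 and ENOR3L3 no role beyond Mg transport. B. napus joins an A and a C genome, so that most genes occur as related copies, and the A or C in each identifier names the genome.

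The libraries held between 13263953 and 31112368 read pairs counted on genes (median 15710704). Levels are given as CPM, the share of these pairs on a gene scaled to a common library size. Pairs that fit several loci, 7.77% to 9.45% of each library, count for no gene, so reads shared by near-identical copies are missing from both. Opposite-strand pairs summed over the 24 libraries came to 3 for POT6, 11 for CNGC3 and 0 each for AVI2 and ENOR3L3. Chlorophyll a/b binding proteins, a marker of leaf tissue, were detected in every group for all 3 genes listed, and their summed level lay between 20.4 and 36.3 CPM in WD and between 94.0 and 148 CPM in control libraries at 18 d. The 3 genes did not move alike at 18 d: BnaCnng14300D (mean 16.4 CPM in WD and 110 CPM in control leaves), which made up most of the sum, and BnaC02g44590D (6.20 and 15.1 CPM) were lower in WD, and BnaC08g16790D (6.25 and 3.11 CPM) was higher, all 3 past the threshold. The part of these genes in the results below was not tested. Dehydrins, proteins that accumulate in drying tissue, served as markers of the treatment. Both marker lists were taken from genes the study called on libraries of this series, so their direction is not independent evidence of the treatment. The summed level of the dehydrins over 7 genes at 18 d was 1941 to 5090 CPM in WD and 1818 to 2680 CPM in control libraries. All 7 had a positive log2 fold change at 18 d (median 0.95), with adjusted p between 0.0767 and 0.595 by edgeR's quasi-likelihood test (5 of 7 at an unadjusted p under 0.05, as had 20.7% of all genes tested).

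Within 2 groups a library stood apart. The first was control 11 d replicate 1, whose distance to the mean of the 5 d controls (root mean square over genes of the log2 difference) was 0.448, against 0.782 and 1.22 for replicates 2 and 3 of its group. The other was WD 18 d replicate 3, at 0.553, against 1.03 and 1.06 for replicates 1 and 2. Both were therefore closer to the 5 d controls than the rest of their groups, and the fold changes, harvest ratios and correlations of the 4 genes that rest on them are given with and without them, while the orders of the groups include them. The part of these 2 libraries in the results was not tested. The 11 d controls were spread beyond replicate 1, since replicates 2 and 3 also lay apart (0.782 and 1.22). Harvest ratios and correlations were not computed without control 11 d replicate 3. Plain CPM also carried a shift between treatments. Over all 54835 genes tested, the median log2 ratio of WD to control in CPM was -0.24 at 18 d and -0.36 at 20 d, while at 5 d and 11 d it lay within 0.03 of 0. The fold changes below come from the model with edgeR's TMM scaling, which centres the 18 d median at 0.0054 and the 20 d median at -0.045. The harvest ratios below are of plain CPM means, without this scaling. In such bulk samples, fewer cells of a type and less RNA per cell cannot be told apart.

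**Figure D1:**
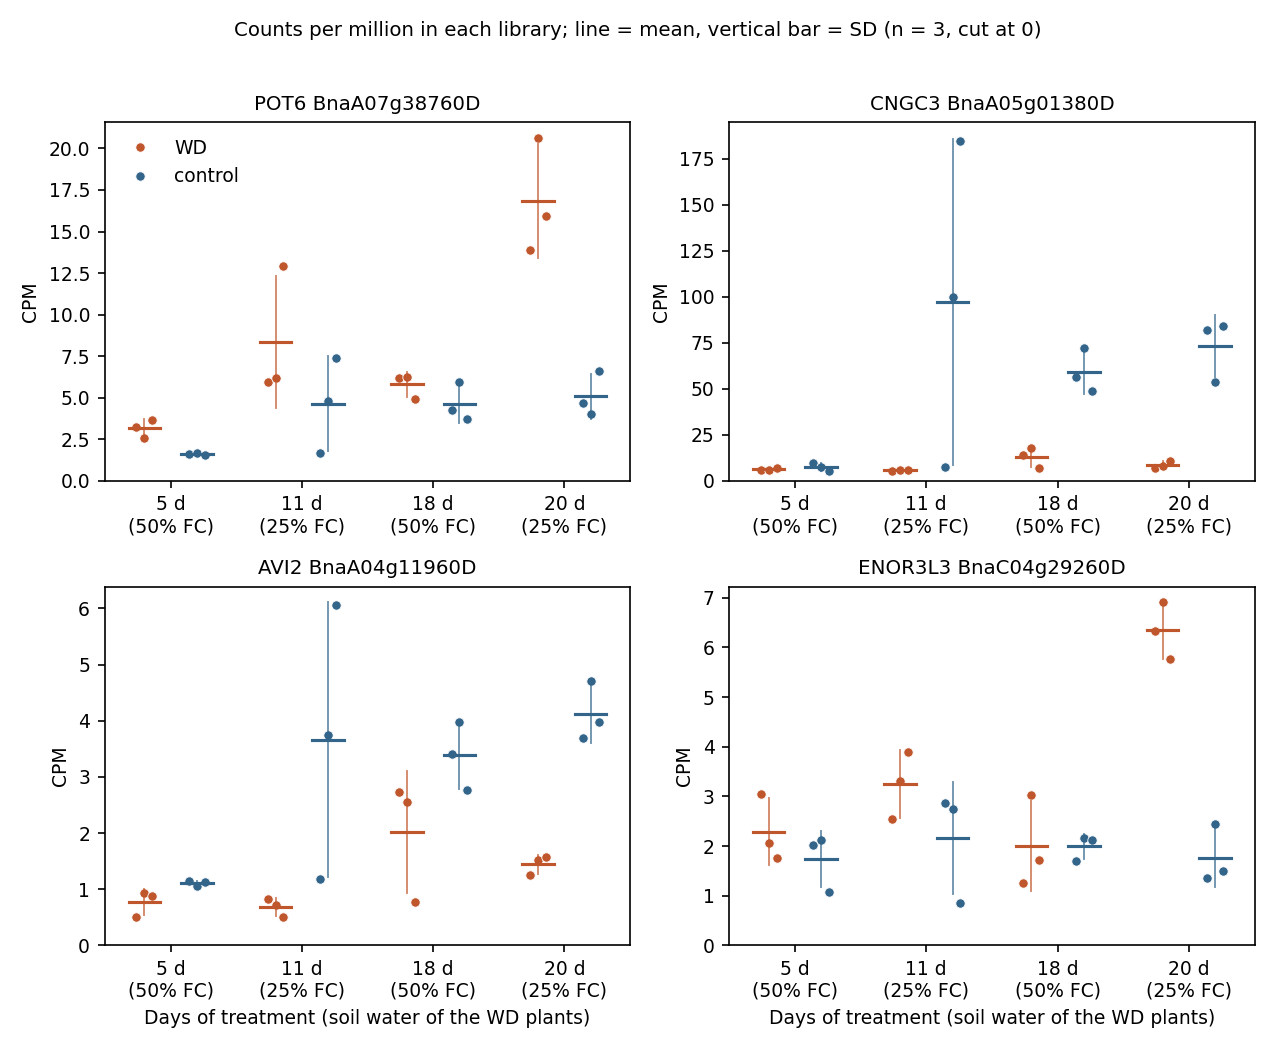
Level of each gene (CPM, vertical axis) in each library at 5 d, 11 d, 18 d and 20 d, WD libraries left of control libraries; points are libraries, horizontal lines the mean and vertical lines the SD (n = 3). POT6 (13.9 to 20.6 CPM) and ENOR3L3 (5.77 to 6.92 CPM) reach their highest levels in WD leaves at 20 d, and CNGC3 spans 7.22 to 184 CPM among the 11 d controls.

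POT6 was higher in WD than in control leaves at 5 d and 20 d, without overlap. At 5 d POT6 had 3.24, 2.56 and 3.64 CPM in WD leaves, against 1.61, 1.66 and 1.57 CPM in control leaves. At 11 d it had 5.95, 6.20 and 12.9 CPM in WD leaves, against 1.70, 4.80 and 7.42 CPM in control leaves. All WD libraries lay above all control libraries at 5 d, whereas the groups overlapped at 11 d, where the lowest control was the library that stands apart. Yet the 36 read pairs of the lowest 5 d WD library allow a level of 1.79 to 3.55 CPM. The 22 of the highest 5 d control allow 1.04 to 2.51 CPM (95% exact Poisson intervals, which cover counting error only). At 18 d the levels were 6.17, 6.27 and 4.94 CPM in WD leaves and 4.26, 5.93 and 3.74 CPM in control leaves. At 20 d they were 13.9, 20.6 and 15.9 CPM in WD leaves and 4.66, 3.99 and 6.60 CPM in control leaves. The groups overlapped at 18 d and not at 20 d, where the lowest WD library was well above the highest control.

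The log2 fold change of POT6, WD over control, was 0.93 at 5 d (approximate SE 0.42), 0.91 at 11 d (SE 0.38) and 2.09 at 20 d (SE 0.38). With 1 library of the harvest left out, the 11 d value ranged between 0.44 (without WD replicate 3) and 1.40 (without control replicate 3), and it was 0.56 without control replicate 1. At 18 d the log2 fold change was 0.60 (SE 0.38, 95% interval -0.20 to 1.40) and did not pass (adjusted p = 0.403, edgeR's quasi-likelihood test). Without WD 18 d replicate 3 it was 0.86 (adjusted p = 0.199). POT6 is a gene whose mean was the highest of the 8 groups in WD leaves at 20 d (16.8 ± 3.45 CPM, SD, n = 3) and the lowest in control leaves at 5 d (1.61 ± 0.0427 CPM). Both ends of that order were clear of their neighbours in level, although counting intervals at the low end overlapped, as given above. The 6 groups between them, with means from 8.36 CPM (WD at 11 d) down to 3.15 CPM (WD at 5 d), overlapped from one to the next and differed by less than the larger SD. Over the 5 d mean of the same treatment, POT6 at 20 d was 5.35 times as high in WD and 3.15 times as high in control leaves.

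The second K gene was CNGC3, whose highest library, control 11 d replicate 3, was 35.4 times its lowest, against 8.07 to 13.1 times for the other 3 genes. A wide range was not particular to it: its C-genome copy (BnaC04g01250D) ran from 1.77 to 142 CPM. At 5 d CNGC3 had 5.59, 5.91 and 7.15 CPM in WD leaves, against 9.86, 7.39 and 5.22 CPM in control leaves. At 11 d it had 5.34, 5.66 and 5.80 CPM in WD leaves, against 7.22, 99.9 and 184 CPM in control leaves. The treatments overlapped at 5 d. At 11 d every control was above every WD library, but replicate 1 of the controls, the library that stands apart, was at the level of the 5 d plants. At 18 d the levels were 14.0, 17.8 and 6.72 CPM in WD leaves and 56.5, 72.0 and 48.5 CPM in control leaves. At 20 d they were 7.14, 7.77 and 10.9 CPM in WD leaves and 81.8, 53.7 and 84.1 CPM in control leaves. The treatments did not overlap at 18 d or 20 d, and the lowest of the 18 d WD libraries was replicate 3.

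The CNGC3 log2 fold change was -0.36 at 5 d (SE 0.65), -4.01 at 11 d (SE 0.71) and -2.78 at 20 d (SE 0.66), and at 11 d it was -4.65 without control replicate 1 and -2.95 without control replicate 3, the highest control. At 5 d the sign rested on 1 library, since the value without control 5 d replicate 1 was 0.13. At 18 d the log2 fold change was -1.90 (SE 0.64, 95% interval -3.25 to -0.55), and it did not pass the threshold of 0.05 (unadjusted p = 0.00837, adjusted p = 0.0911 by edgeR's quasi-likelihood test). It did pass with DESeq2 (adjusted p = 0.0307), with edgeR's likelihood ratio test (adjusted p = 0.0370) and with the 18 d libraries fitted alone (adjusted p = 0.0390). Without WD 18 d replicate 3 it was -1.49 (adjusted p = 0.194). CNGC3 thus sat close to the threshold at 18 d, on either side of it by the choice of test and of the libraries fitted.

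By mean level, control leaves at 11 d (97.2 ± 88.6 CPM), 20 d (73.2 ± 16.9 CPM) and 18 d (59.0 ± 11.9 CPM) had the highest CNGC3 (SD, n = 3 each) and did not differ from one another beyond their spread. Next came WD leaves at 18 d (12.8 ± 5.61 CPM), whose mean was 46.2 CPM below that of the 18 d controls and whose range (6.72 to 17.8 CPM) held control 11 d replicate 1, and then WD at 20 d, control at 5 d, WD at 5 d and WD at 11 d, all overlapping their neighbours. Relative to 5 d, control leaves were 13.0 times as high at 11 d, 7.88 times at 18 d and 9.77 times at 20 d. In WD leaves the same ratios were 0.901, 2.06 and 1.39. Without the libraries that stand apart, the ratio was 19.0 for control leaves at 11 d and 2.55 for WD leaves at 18 d. With control replicate 3, the highest control, left out instead, the 11 d ratio would be lower, and it was not computed. The larger ratio in control leaves at 11 d is part of the choice of CNGC3. The difference between the treatments over the harvests was not tested.

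**Figure D2:**
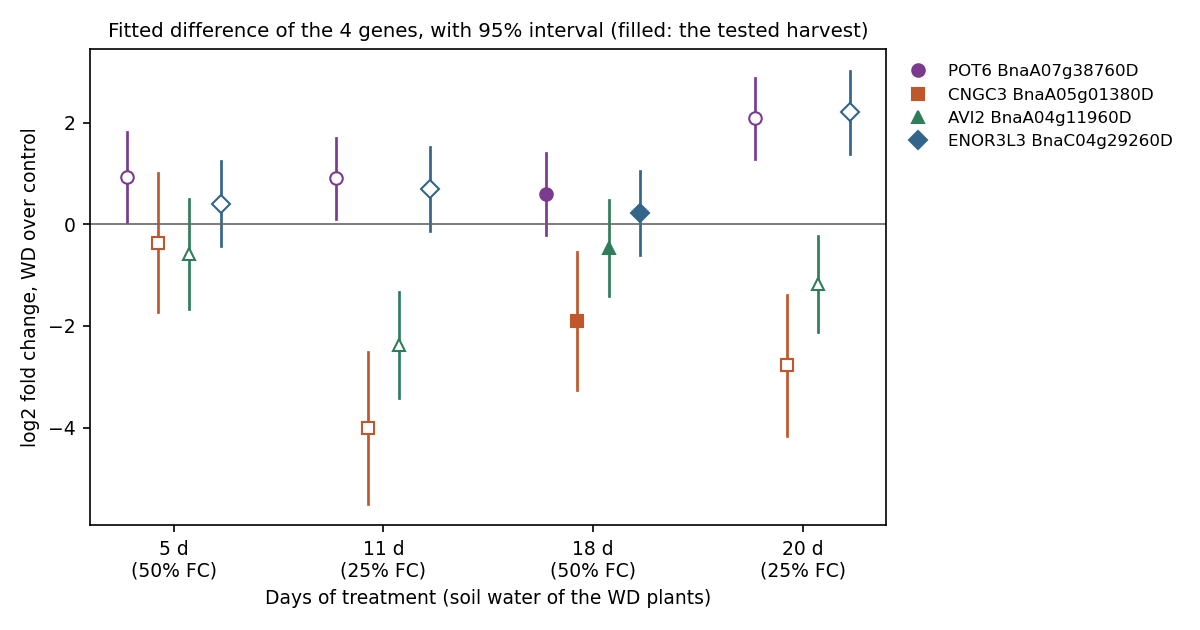
Fitted log2 fold change of WD over control (vertical axis) of the 4 genes at each harvest, with 95% intervals from the TMM-scaled model; filled symbols mark 18 d, the one harvest tested. At 20 d POT6 (2.09) and ENOR3L3 (2.20) lie above 0 and CNGC3 (-2.78) and AVI2 (-1.18) below it, and at 18 d only the CNGC3 interval leaves out 0.

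The Mg gene AVI2 was rare in these leaves, with 8 to 115 read pairs per library, so that its levels carry wide counting error. At 5 d AVI2 had 0.509, 0.925 and 0.878 CPM in WD leaves, against 1.14, 1.06 and 1.12 CPM in control leaves. At 11 d it had 0.826, 0.723 and 0.510 CPM in WD leaves, against 1.18, 3.74 and 6.07 CPM in control leaves. WD lay below control at both harvests with no overlap, yet at 5 d the 8 pairs behind the lowest WD value allow a level of 0.220 to 1.002 CPM and the 14 pairs behind the lowest control value one of 0.577 to 1.77 CPM (95% exact Poisson intervals, which cover counting error only). At 11 d the 15 pairs of the highest WD library allow 0.462 to 1.36 CPM. The 16 pairs of control replicate 1, the library that stands apart, allow 0.674 to 1.92 CPM. At 18 d the levels were 2.74, 2.54 and 0.773 CPM in WD leaves and 3.41, 3.98 and 2.76 CPM in control leaves. At 20 d they were 1.25, 1.52 and 1.57 CPM in WD leaves and 3.70, 4.70 and 3.97 CPM in control leaves. The nearest 18 d libraries in plain CPM were almost level, 2.74 in WD and 2.76 in control leaves, and the groups overlapped there once scaled by TMM (0.780 to 3.07 in WD and 2.56 to 3.43 in control leaves). At 20 d they did not overlap on either scale.

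AVI2 had a log2 fold change of -0.58 at 5 d (SE 0.51), -2.37 at 11 d (SE 0.50) and -1.18 at 20 d (SE 0.45). Without control 11 d replicate 1 the 11 d value was -2.84, and without replicate 3, the highest control, it was -1.62. At 18 d it was -0.47 (SE 0.45, 95% interval -1.41 to 0.48) and did not pass edgeR's quasi-likelihood test (adjusted p = 0.617). That value rested on WD 18 d replicate 3, without which it was 0.013 (adjusted p = 0.991). The order of the groups put control leaves at 20 d (4.12 ± 0.520 CPM), 11 d (3.66 ± 2.44 CPM) and 18 d (3.38 ± 0.607 CPM) first (SD, n = 3 each), with no difference beyond their spread. WD at 18 d (2.02 ± 1.08 CPM) and at 20 d (1.45 ± 0.170 CPM) overlapped each other. Control at 5 d followed clear of both neighbours in level, though not in counting error (1.11 ± 0.0451 CPM). WD at 5 d and at 11 d overlapped in the lowest place. In plain CPM, control leaves were 3.31, 3.06 and 3.73 times the 5 d level at 11 d, 18 d and 20 d, and WD leaves 0.891, 2.62 and 1.88 times. Without the libraries that stand apart, control leaves were at 4.43 times at 11 d and WD leaves at 3.43 times at 18 d. The 11 d ratio without control replicate 3, the highest control, was not computed. Scaled by TMM, the means at 5 d and 18 d were 1.18 and 3.07 CPM in control leaves. In WD leaves they were 0.793 and 2.24 CPM, so which treatment rose more by 18 d depends on the scaling.

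ENOR3L3, the other Mg gene, had control means in plain CPM of 1.25, 1.15 and 1.02 times its 5 d level at the later harvests in order of time (1.04 at 11 d without control replicate 1). Scaled by TMM, the control means were 1.87 CPM at 5 d, 2.06 at 11 d, 1.81 at 18 d and 1.59 at 20 d. At 5 d ENOR3L3 had 3.05, 2.06 and 1.76 CPM in WD leaves, against 2.01, 2.11 and 1.08 CPM in control leaves. At 11 d it had 2.53, 3.31 and 3.89 CPM in WD leaves, against 2.88, 2.75 and 0.858 CPM in control leaves. The groups overlapped at both harvests. At 18 d the levels were 1.26, 3.02 and 1.72 CPM in WD leaves and 1.71, 2.16 and 2.11 CPM in control leaves. At 20 d they were 6.33, 6.92 and 5.77 CPM in WD leaves and 1.35, 2.45 and 1.49 CPM in control leaves. The groups overlapped at 18 d, where WD held both the highest and the lowest library. At 20 d the lowest WD library was well above the highest control, with 86 to 114 read pairs in WD and 21 to 42 in control libraries.

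The ENOR3L3 log2 fold change was 0.40 at 5 d (SE 0.40), 0.69 at 11 d (SE 0.39) and 2.20 at 20 d (SE 0.39), and with 1 library left out it ranged between 0.072 and 0.64 at 5 d and between 0.27 (without WD replicate 3) and 1.09 (without control replicate 1) at 11 d. At 18 d it was 0.22 (SE 0.40, 95% interval -0.61 to 1.05) and did not pass edgeR's quasi-likelihood test (adjusted p = 0.815). Without WD 18 d replicate 3 it was 0.25 (adjusted p = 0.790), and without WD 18 d replicate 2, the highest library, -0.11 (adjusted p = 0.947). WD at 20 d stood first of the 8 groups (6.34 ± 0.576 CPM, SD, n = 3), clear of WD at 11 d (3.24 ± 0.679 CPM). The other 7 groups overlapped from one to the next, and the 6 below WD at 11 d lay between 2.29 and 1.73 CPM. Within WD leaves the mean at 20 d and 25% FC was 3.17 times that at 18 d and 50% FC, whereas in control leaves the same ratio was 0.884. For POT6 these ratios were 2.90 and 1.09. Whether the response at 20 d differed from that at 18 d was not tested, as the 20 d values chose both genes.

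Counted over the 4 genes, the treatments did not overlap in plain CPM for 2 at 5 d (POT6 with WD higher, AVI2 with WD lower), 2 at 11 d (CNGC3 and AVI2, WD lower), 2 at 18 d (CNGC3 and AVI2, WD lower) and 4 at 20 d (POT6 and ENOR3L3 higher, CNGC3 and AVI2 lower). Of all genes tested, 10.4% had every WD library above every control at 5 d and 8.88% at 20 d. WD lay wholly below control for 8.41% at 5 d, 8.54% at 11 d, 25.5% at 18 d and 39.2% at 20 d. Nothing is read from the counts of the harvests that chose the genes. Scaled by TMM, 1 of the 4 genes (CNGC3) lay wholly below control at 18 d, as did 13.8% of all genes tested. By edgeR's quasi-likelihood test at 18 d, 0 of the 4 genes passed and 1 had an unadjusted p under 0.05, near the 20.7% of all genes tested that had one, and DESeq2 called 1 (CNGC3). Of all genes tested, 3016 passed (5.50%), 1631 of them higher in WD (2.97%) and 1385 lower (2.53%). The median log2 fold change at 18 d was -0.12 over the 4 genes and 0.0054 over all genes tested.

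**Figure D3:**
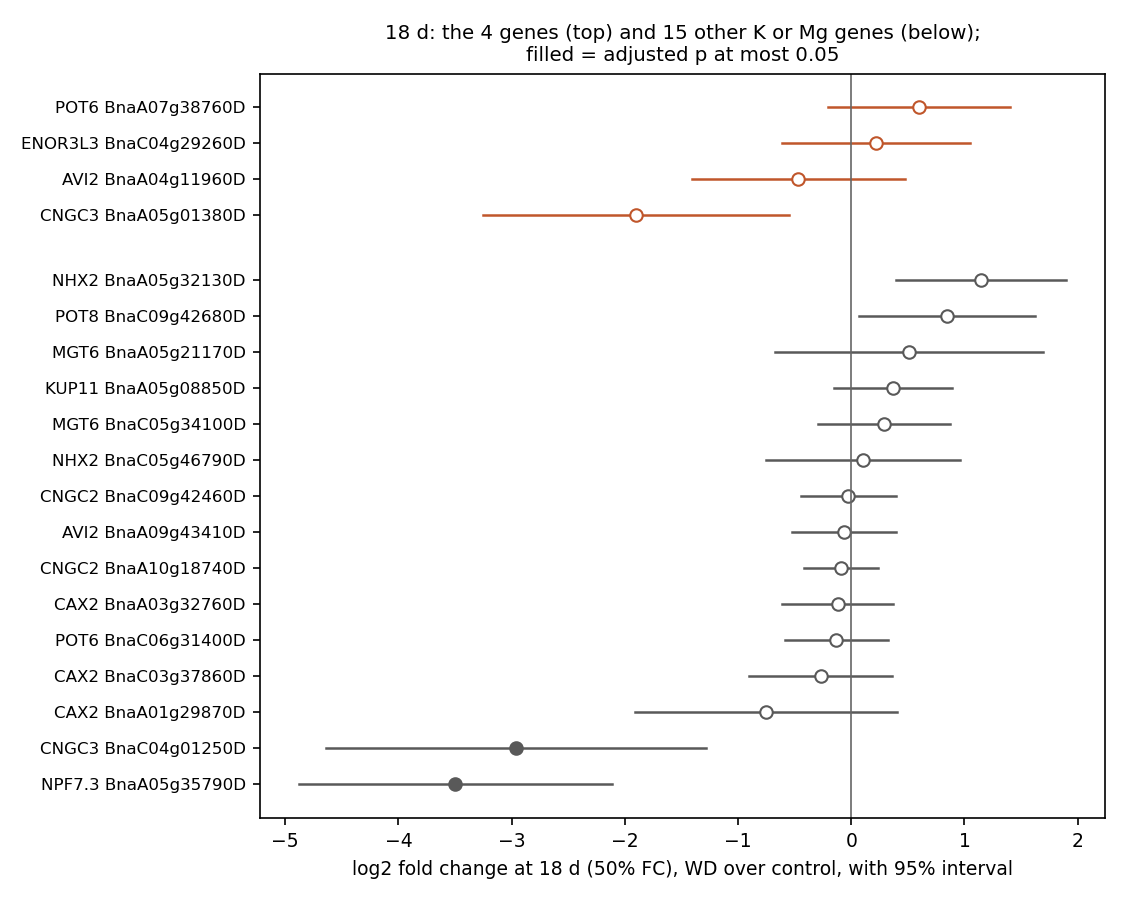
Log2 fold change at 18 d, WD over control (horizontal axis), with 95% intervals, for the 4 genes (top block) and the 15 other K or Mg genes of the study's list (lower block); filled points passed the threshold. Only NPF7.3 (-3.50) and the C-genome copy of CNGC3 (-2.96) passed, both lower in WD.

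The study's list of transporter genes holds 15 more entries under K or Mg. As it is made of genes that the study called on libraries of this series, it is not independent evidence of a direction. At 18 d, 2 of the 15 passed edgeR's quasi-likelihood test, both lower in WD. Of all genes tested, 5.50% passed, and 2.53% passed with WD lower. An unadjusted p under 0.05 was found for 4 of the 15, a share near the 20.7% of all genes tested. The median log2 fold change of the 15 was -0.07. One of them was NPF7.3 (BnaA05g35790D), in Arabidopsis a nitrate transporter of the vascular tissue that also affects K transport. NPF7.3 had 0.912, 0.355 and 0.476 CPM in WD leaves at 18 d, against 10.2, 8.09 and 4.71 CPM in control leaves. Its log2 fold change at 18 d was -3.50 (SE 0.66, adjusted p = 0.00730, edgeR's quasi-likelihood test), with all WD libraries below all control libraries, and it passed with each 18 d library left out. At 5 d NPF7.3 had at most 1 read pair in any library.

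The other gene that passed was the C-genome gene named CNGC3 (BnaC04g01250D). At 18 d it had 5.54, 7.22 and 3.03 CPM in WD leaves and 41.7, 71.6 and 37.4 CPM in control leaves, with a log2 fold change of -2.96 (SE 0.80, adjusted p = 0.0380, edgeR's quasi-likelihood test). This call was lost when any of 5 of the 6 18 d libraries was left out (adjusted p from 0.0862 to 0.146), and the value without WD 18 d replicate 3 was -2.61. In control leaves at 11 d it had 1.77, 63.5 and 142 CPM, so that replicate 1 was again low. In the WD libraries of that harvest it had between 1.99 and 3.42 CPM, which overlapped the controls, unlike the A copy. Its mean in control leaves was highest at 20 d (73.4 ± 12.8 CPM, SD, n = 3), and its log2 fold change was -4.73 at 11 d (-5.47 without control replicate 1 and -3.23 without control replicate 3) and -3.77 at 20 d, and -0.37 at the first harvest.

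The copies of POT6 and AVI2 are given beside the genes followed here, which were chosen for their small p, so that a smaller change in a copy is part of that choice. POT6 of the C genome (BnaC06g31400D) had 5.40, 5.62 and 7.67 CPM in WD and 7.68, 9.28 and 7.10 CPM in control leaves at 18 d, which overlapped. Its log2 fold change was 0.15 at 5 d, 0.21 at 11 d, -0.13 at 18 d (SE 0.21, adjusted p = 0.796, edgeR's quasi-likelihood test) and 0.78 at 20 d. The A09 gene named AVI2 (BnaA09g43410D) had 12.4, 12.9 and 9.10 CPM in WD and 15.9, 14.0 and 13.3 CPM in control leaves at 18 d, with no overlap in CPM but with overlap once scaled by TMM. Its log2 fold change was -0.48, -1.02, -0.07 (SE 0.22, adjusted p = 0.907, edgeR's quasi-likelihood test) and -0.20 at 5 d, 11 d, 18 d and 20 d, and the 18 d value was 0.13 without WD replicate 3. The difference in response between copies was not tested.

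Among the other K genes, the KUP family members KUP11 (BnaA05g08850D) and POT8 (BnaC09g42680D) had log2 fold changes at 18 d of 0.37 and 0.85, and neither passed. NHX2, in Arabidopsis an exchanger that moves K and sodium into the vacuole against protons, had 1.15 for its A copy (BnaA05g32130D, adjusted p = 0.0690, edgeR's quasi-likelihood test) and 0.10 for its C copy (BnaC05g46790D). The A copy of NHX2 had 3.37, 5.56 and 4.10 CPM in WD and 1.71, 2.51 and 2.82 CPM in control leaves at 18 d, with every WD library above every control. The 3 CAX2 genes, cation exchangers of the vacuole in Arabidopsis that the study lists under several elements, lay between -0.76 and -0.12. Among the Mg genes, 2 MGT6 genes, whose Arabidopsis namesake is a Mg transporter, had 0.51 and 0.29, and both CNGC2 channels, which the study lists under Ca and Mg, had -0.09 and -0.03. None of these passed the test.

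**Figure D4:**
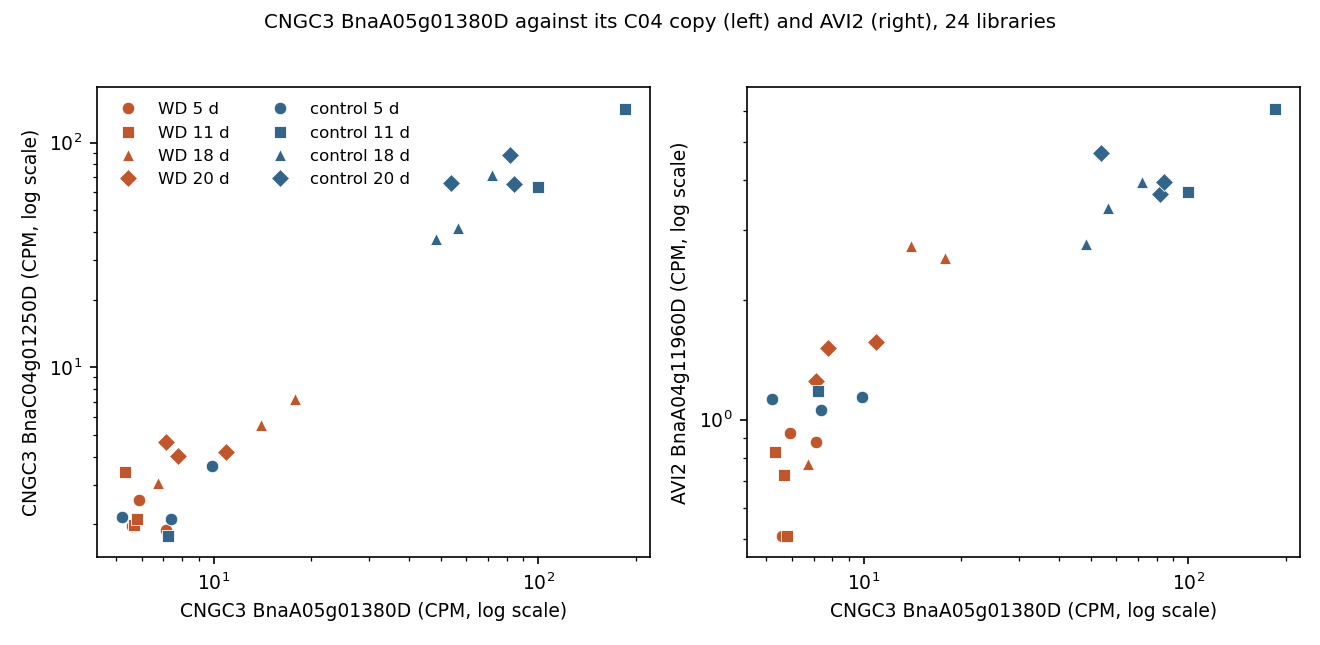
Level of CNGC3 BnaA05g01380D (CPM, log scale, horizontal axis) against its C-genome copy (left) and AVI2 (right) in the 24 libraries, on log scales; colour marks the treatment and shape the harvest. In both panels the controls of 18 d and 20 d and control 11 d replicates 2 and 3 lie at the upper right, while control 11 d replicate 1 lies among the 5 d libraries.

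The pattern of each gene was then compared with that of 46978 genes over the 24 libraries, by Pearson's r of log2(CPM + 0.5). These correlations are descriptions: all points share the treatment, the harvest and the libraries that stand apart. CNGC3 was most like BnaA06g22560D (r = 0.99), annotated by the study with a metallophosphoesterase domain, and BnaA09g48890D (r = 0.99). Its C-genome copy ranked 16 (r = 0.98) and BnaA03g34680D, a gene annotated with a cyclic nucleotide-binding and an ion transport domain, ranked 25 (r = 0.98). That gene had 8.07, 10.4 and 3.33 CPM in WD and 23.7, 45.2 and 27.8 CPM in control leaves at 18 d, with a log2 fold change of -1.83 (SE 0.73, adjusted p = 0.155, edgeR's quasi-likelihood test). AVI2 was most like BnaAnng28860D and BnaA02g05760D (r = 0.98 each), the second annotated with an F-box domain, and CNGC3 ranked 170 for AVI2 (r = 0.94). An annotated NIPA Mg transporter, BnaC04g33740D, reached r = 0.92 with AVI2 but ranked only 446. Its log2 fold change at 18 d was 0.11 (SE 0.52, adjusted p = 0.938, edgeR's quasi-likelihood test). The A09 gene named AVI2 ranked 1931 (r = 0.86).

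POT6 was most like BnaC08g16850D (r = 0.96), annotated to the heat shock protein 70 family, and BnaA09g05680D (r = 0.94). Its own C-genome copy ranked 85 (r = 0.86). ENOR3L3 had the loosest matches, BnaA08g16920D (r = 0.89) and BnaA09g53100D (r = 0.87), with Spearman's rho of 0.78 and 0.71. Between the 4 genes, CNGC3 and AVI2 gave r = 0.94 and POT6 and ENOR3L3 r = 0.59, while CNGC3 and ENOR3L3 gave r = -0.41 and POT6 and CNGC3 r = 0.08. Without both libraries that stand apart, an alternative chosen after the data were seen, as it was for the harvest ratios, these 4 values were 0.94, 0.65, -0.44 and 0.036, and the 8 most alike genes gave r between 0.89 and 0.99. The libraries that chose the genes are among the points, so nothing is read from the differences between these values.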

How the data were processed

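Polyadenylated leaf RNA of 24 libraries, 3 per group, was sequenced as stranded read pairs. The authors trimmed reads with Trimmomatic 0.36, removed rRNA with sortMeRNA 2.1, mapped and counted pairs with STAR 2.7.3a on the Genoscope annotation V5, and deposited the counts per gene for no strand, the forward and the reverse strand, without normalization. The reverse column was used; between 0.301% and 0.479% of gene pairs lay on the opposite strand. Pairs on no gene (15.8% to 19.2%) were left out of library sizes. Fold changes and p-values of the study's supplement entered no fit, test or level given here. Its p-values did choose the genes followed here, and its calls supplied the other K or Mg genes and both marker lists.

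Genes with at least 0.6 CPM in 3 or more libraries were fitted in edgeR 4.0.16 (R 4.3.3, limma 3.58.1) with TMM scaling, 8 groups and, as in the study's model, the replicate number as a block. The quasi-likelihood test was used at 18 d, with Benjamini-Hochberg adjustment over 54835 genes and a threshold of 0.05; SEs are approximate. On simulated counts of the 18 d comparison with 200 genes changed, 13% of 2-fold and 51% of 4-fold changes were recovered, with 2 false calls among 66. The simulation had far fewer changed genes than the 3016 called here and no library that stands apart. Its shares therefore hold for the simulated setting and do not give the recovery in these data. Alternatives were the likelihood ratio test, DESeq2 1.42.0, DESeq2's size factors, no filter, both strands, no block, 18 d alone, and each library left out. Levels, likeness and figures came from Python 3.11.15, numpy 2.4.6, pandas 2.3.3, scipy 1.17.1 and matplotlib 3.10.9.

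The text names the 4 genes, the other K or Mg genes of the study's list (with values for the copies and for those called) and the 2 genes most like each of the 4, from those averaging at least 1 CPM. NHX2 BnaA05g32130D, BnaA03g34680D and BnaC04g33740D were given values after these were seen. Members and lists were chosen with earlier results of these data known. The reference used here annotates none of the listed identifiers, so counts over all annotated K and Mg transporters were not made, and sequences and gene lengths were not used. Levels are therefore not compared between genes.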

Additional observations from a re-analysis of the deposited data

How the results depend on the processing

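At 18 d, 3016 genes were called. The likelihood ratio test called 4631 (2309 higher and 2322 lower in WD), DESeq2 4659 (2615 and 2044), the 18 d libraries fitted alone with the block 1199 (279 and 920), and fits that left out 1 of the 18 d libraries between 595 and 4355. Under DESeq2's size factors, no filter and both strands the count stayed within 1.5 times. CNGC3 at 18 d passed with the likelihood ratio test (-1.90), DESeq2 (-1.89), 18 d alone with the block (-2.03) and 18 d alone without it (-1.92, adjusted p = 0.0351, an alternative chosen after the data were seen); with 1 library left out it ranged between -2.26 and -1.49 and did not pass (adjusted p 0.103 to 0.247, edgeR's quasi-likelihood test). The causes were not tested. Left-out fits gave 0.37 to 0.86 for POT6, -0.91 to 0.013 for AVI2 and -0.11 to 0.47 for ENOR3L3 at 18 d, none past the threshold. The sign reversed for AVI2 at 18 d without WD replicate 3 (0.013), ENOR3L3 at 18 d without WD replicate 2 (-0.11) and CNGC3 at 5 d, which ranged between -0.70 without control replicate 3 and 0.13 without control replicate 1. Of the 15 other K or Mg genes, 1 to 2 were called with 1 library left out and 2 to 3 under the other alternatives. Over all genes, these fits called 595 to 4355 and 1199 to 4659.

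The replicate block changed no call of the 4 genes: without it 3328 genes were called at 18 d, 2871 of them shared with the 3016, and the 4 log2 fold changes were 0.59, -1.92, -0.47 and 0.27 in the order POT6, CNGC3, AVI2 and ENOR3L3. Replicate numbers gave no sign of pairing at 18 d. Deviations from the group means correlated at 0.059, -0.026 and -0.001 between WD and control libraries of the same number. Between those of different numbers the values ran from -0.049 to 0.045. With 3 libraries per group these values cannot exclude pairing. Depth limits AVI2 and ENOR3L3 most, with medians of 25 and 38.5 read pairs per library.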
